A study of Homo sapiens with 3 samples.

Results

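The 10 genes described here encode the subunits of the transcription factor NF-κB and a set of its inhibitors and were picked by symbol, by their role in the pathway, from the 24254 gene symbols of an FPKM table. The 5 subunit genes were RELA, RELB, REL, NFKB1 and NFKB2, and the 5 inhibitor genes were NFKBIA, NFKBIB, NFKBIE, NFKBIZ and TNFAIP3. All 10 were found in the table. They were measured in LX-2, an established line of human hepatic stellate cells, by sequencing of poly(A) mRNA. The study stimulated LX-2 cells with recombinant human FGF19 (rhFGF19), a hormone-like growth factor, to learn how it alters their gene expression. There was 1 library of vehicle-treated cells, 1 library titled 50 ng/mL rhFGF19 and 1 library titled 100 ng/mL. The doses followed the titles and the agent labels. The free-text descriptions of the samples exchanged the 2 doses and gave 72 and 73 h of stimulation, whereas the design of the series gave 24 h, so the duration was uncertain. No genetic change was named for any library.

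NF-κB acts as a dimer of subunits that share a DNA-binding Rel homology domain. RELA (p65), RELB and REL (c-Rel) carry an activation domain, whereas NFKB1 (p105) and NFKB2 (p100) are precursors that are processed to the DNA-binding p50 and p52. In resting cells IκB proteins hold the dimers in the cytoplasm until IκB kinases mark them for destruction, and the released dimers bind κB sites, including those in the promoters of several of their own inhibitors, which gives the pathway its feedback. In stellate cells the pathway is known for driving inflammatory cytokines and chemokines and for protecting activated cells from apoptosis.

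To set the members beside the DNA element that defines the pathway, RefSeq promoter windows of GRCh38.p14, each covering 250 bases before and 50 bases after an annotated start, were searched on both strands for the 10-base κB consensus, with overlapping matches merged. Of 35116 windows in the genome, 5.91% held a match. The members had 14 windows, matched by symbol for 8 genes (not RELB and NFKBIE), and 9 of these windows held at least 1 match. RELA was the gene without a match, in both of its windows. The stretches below hold the match nearest to a start in the genes more than 2-fold higher than vehicle at both doses (NFKB1, TNFAIP3 and NFKBIZ). Those of the feedback inhibitor NFKBIA and the barely detected REL are printed too, with RELA as the gene without a match. They run 5′ to 3′ on the strand of the gene, capitals mark the bases of a match, and positions are counted back from the base before the RefSeq start, which is -1.
NFKB1: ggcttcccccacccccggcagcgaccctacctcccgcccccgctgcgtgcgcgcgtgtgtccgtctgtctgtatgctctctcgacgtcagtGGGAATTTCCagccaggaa
TNFAIP3: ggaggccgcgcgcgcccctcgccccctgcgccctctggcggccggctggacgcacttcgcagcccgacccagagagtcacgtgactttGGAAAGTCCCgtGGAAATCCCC
NFKBIZ: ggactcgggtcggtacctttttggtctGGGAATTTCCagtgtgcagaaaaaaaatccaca
NFKBIA: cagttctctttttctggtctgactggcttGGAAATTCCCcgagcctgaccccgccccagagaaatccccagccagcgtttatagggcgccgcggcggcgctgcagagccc
REL: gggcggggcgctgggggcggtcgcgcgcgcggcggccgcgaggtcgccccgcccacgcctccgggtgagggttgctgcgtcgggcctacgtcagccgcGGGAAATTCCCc
RELA: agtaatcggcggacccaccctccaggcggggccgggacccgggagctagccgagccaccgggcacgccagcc

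The NFKB1 stretch (chr4:102501219-102501328, plus strand) carried its match at positions -49 to -40. The TNFAIP3 stretch (chr6:137867104-137867213, plus strand) carried a pair, at -67 to -58 and at -55 to -46. The match of NFKBIZ lay farther out, at -223 to -214 (chr3:101827740-101827799, plus strand), and its letters were those of the NFKB1 match. That of NFKBIA lay at -81 to -72 (chr14:35404750-35404859, minus strand). In REL (chr2:60881429-60881538, plus strand) the consensus was met on both strands at -47 to -37. The RELA stretch, at -250 to -179 (chr11:65663095-65663166, minus strand), held none. Within the printed stretches, 18 bases of REL and 26 of TNFAIP3 overlapped an exon of that gene in GENCODE v29. NFKB2 had matches in the second and the third of its windows and NFKBIB in the second. Both of these genes were lower than vehicle at both doses, and their stretches are not printed. Members with a match thus lay both above and below vehicle. A match describes letters in a window and is neither a bound site nor a cause of the values that follow.

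Values in a series are given in the order vehicle, 50 and 100 ng/mL, and a gene passed the filter when its FPKM averaged 0.5 or more. Of 16 stellate and fibroblast markers, 15 were in the table and 10 passed, with summed levels of 1105, 1158 and 1167 FPKM. The sum hides markers going both ways. VIM had 439, 654 and 649 FPKM and COL1A1 78.3, 108 and 104 FPKM, but TAGLN had 223, 118 and 126 FPKM and TIMP1 308, 184 and 193 FPKM. ACTA2 had 8.55, 8.01 and 7.74 FPKM, whereas COL1A2 did not exceed 0.14 FPKM and LRAT, which marks retinoid-storing stellate cells, was listed at 0 in every library. Of the hepatocyte markers, 3 of 10 passed the filter and their summed level was 14.3, 14.4 and 13.4 FPKM. Of 10 leukocyte markers, 5 were in the table and 3 passed the filter, with a sum of 53.0, 47.5 and 43.0 FPKM that was mostly CD68. The epithelial markers, 6 of 8 in the table, summed to 515, 322 and 316 FPKM, mostly KRT18 and KRT8, both lower with rhFGF19 in the direction of RELB and NFKBIE as described next. SOX9, of the same list, went the other way, with 4.77, 9.96 and 9.64 FPKM. The endothelial markers, 7 of 8 in the table, summed to 40.3, 32.2 and 33.9 FPKM, mostly TIE1. Their part in the members' differences was not tested. FPKM summed to 302243, 276690 and 281606, and the median of the passing genes was 2.68 with vehicle, 4.53 with 50 ng/mL and 4.51 with 100 ng/mL, so the vehicle library stood apart from both others.

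The subunit genes were expressed at very unequal levels in vehicle-treated LX-2 cells, and all 3 libraries gave the same order, NFKB2, RELA, RELB, NFKB1 and REL from high to low. RELA and NFKB2 were close neighbours in each. FPKM divides by transcript length but does not adjust for the GC content of transcripts, along which these libraries differed, as described further on. The order and the shares of different genes are therefore those of the deposited scale only. Since each value describes the RNA of a whole culture, fewer cells with a transcript and less of it per cell cannot be told apart. Differences are those of log2(FPKM + 0.1), and a gene was called higher or lower past a difference of 1, which is a 2-fold change. With 1 library per condition there was no replicate check, and no p-value, SE or SD was computed for any difference.

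RELA, the transactivating partner of the classical dimer (ENSG00000173039, chr11:65653597-65663090, minus strand), had 61.0 FPKM with vehicle, 48.4 with 50 ng/mL and 48.2 with 100 ng/mL. It was thus lower in both rhFGF19 libraries, by similar amounts, with log2 differences from vehicle of -0.33 and -0.34. Even so, RELA stood above at least 96.1% of all gene symbols in each library. NFKB2, the precursor of p52 (ENSG00000077150, chr10:102394110-102402524, plus strand), had 65.1, 50.1 and 48.8 FPKM in the same order. Its log2 differences of -0.38 and -0.41 were close to those of RELA.

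RELB, the partner of p52 in the non-canonical pathway (ENSG00000104856, chr19:45001449-45038198, plus strand), had 49.7 FPKM with vehicle, 24.6 with 50 ng/mL and 28.0 with 100 ng/mL. It was the subunit with the most negative difference, at -1.01 on the log2 scale for 50 ng/mL and -0.83 for 100 ng/mL. Its level at 50 ng/mL was 0.496 times that of vehicle.

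NFKB1, the precursor of p50 (ENSG00000109320, chr4:102501331-102617302, plus strand), went the other way, with 5.0 FPKM with vehicle, 10.6 with 50 ng/mL and 10.1 with 100 ng/mL. These were log2 differences of 1.07 and 1.01, or 2.11 and 2.01 times the vehicle level. NFKB1 was the only subunit above the filter with a higher value in both rhFGF19 libraries. REL, the subunit best known from lymphoid cells (ENSG00000162924, chr2:60881521-60931612, plus strand), was listed at 0.050, 0.20 and 0.18 FPKM. Its mean did not reach the 0.5 FPKM that a gene needed to be compared, so REL was not counted in either direction.

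**Figure D1:**
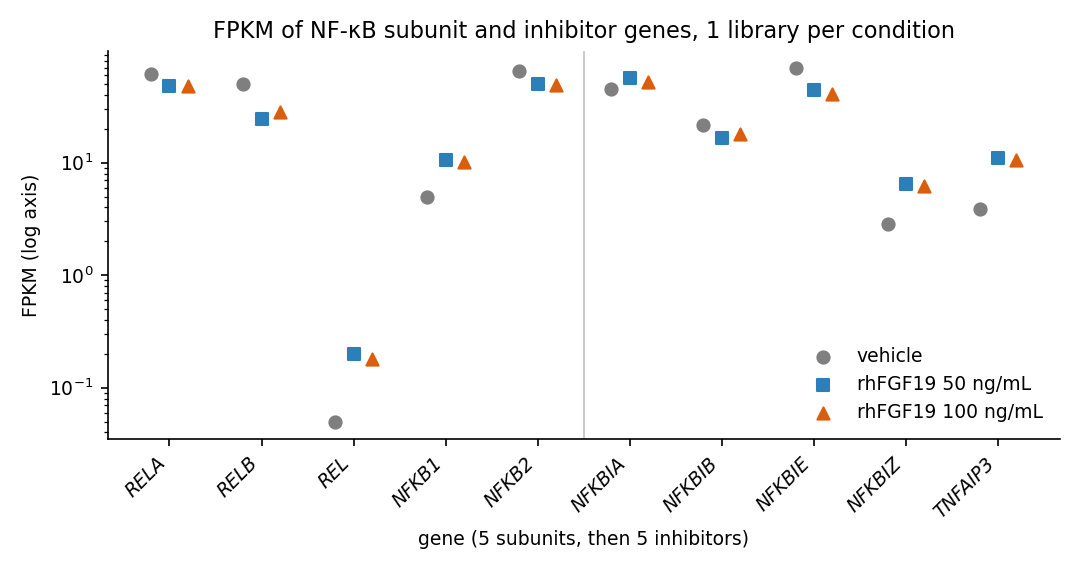
FPKM of the 5 subunit genes and the 5 inhibitor genes (log axis) in the vehicle library (circles), the 50 ng/mL library (squares) and the 100 ng/mL library (triangles), with 1 point per library and no error bars because no condition was repeated. The square and the triangle of each gene lie close together, with vehicle below them for NFKB1, NFKBIA, NFKBIZ, TNFAIP3 and REL and above them for the other genes.

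Among the inhibitors, the 3 classical IκB genes NFKBIA, NFKBIB and NFKBIE were abundant in vehicle-treated cells, and NFKBIZ and TNFAIP3 were low. NFKBIA, which encodes IκBα, the inhibitor that is degraded and resynthesised within one round of signalling (ENSG00000100906, chr14:35401513-35404749, minus strand), had 45.4 FPKM with vehicle, 57.1 with 50 ng/mL and 52.1 with 100 ng/mL. It was modestly higher in both rhFGF19 libraries, by 0.33 and 0.20 on the log2 scale. NFKBIB, encoding IκBβ (ENSG00000104825, chr19:38899700-38908893, plus strand), had 21.4, 16.6 and 18.1 FPKM. NFKBIE, encoding IκBε (ENSG00000146232, chr6:44258166-44265788, minus strand), had 68.8, 44.2 and 40.8 FPKM. Both were lower with rhFGF19, with log2 differences of -0.36 and -0.24 for NFKBIB and of -0.64 and -0.75 for NFKBIE, so the 3 IκB genes did not move in one direction.

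TNFAIP3, encoding the ubiquitin-editing enzyme A20 that shuts off signalling upstream of the IκB kinases (ENSG00000118503, chr6:137867214-137883312, plus strand), had 3.86 FPKM with vehicle, 10.9 with 50 ng/mL and 10.6 with 100 ng/mL. Its log2 differences of 1.47 and 1.44 were the highest of all 9 compared members, 2.78 and 2.70 times the vehicle level. NFKBIZ, encoding the nuclear protein IκBζ that restrains some NF-κB targets and is required for others (ENSG00000144802, chr3:101827991-101859523, plus strand), had 2.82, 6.41 and 6.15 FPKM. It followed TNFAIP3, with log2 differences of 1.16 and 1.10.

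Some of these genes overlap a neighbour, and the sources used here do not state whether reads were assigned by strand. NFKBIZ overlaps NXPE3 on the same strand, which had 1.19, 3.54 and 3.15 FPKM, so it too was higher in both rhFGF19 libraries. NFKBIB overlaps SIRT2 on the other strand, which had 21.0, 14.0 and 13.8 FPKM. The overlapping genes of RELA (RELA-DT), TNFAIP3 (WAKMAR2) and REL (AC010733) were all listed below 1 FPKM in every library. What part reads shared with a neighbour had in the members' values was not tested.

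The make-up of the subunit set and of the inhibitor set was described as the share of each gene in the summed FPKM of its set. RELA and NFKB2 made up most of the subunit RNA in every library, RELA with 33.7%, 36.1% and 35.6% and NFKB2 with 36.0%, 37.4% and 36.1% in vehicle, 50 and 100 ng/mL. The share of RELB was smaller with rhFGF19, at 27.5%, 18.4% and 20.7%. The share of NFKB1 was larger, at 2.76%, 7.95% and 7.49%. NFKB1 thus went from 0.0820 to 0.220 and 0.211 times the FPKM of RELA, its partner in the classical p50-p65 dimer. RELB went from 0.815 to 0.508 and 0.582 times the FPKM of RELA.

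Within the inhibitors, NFKBIE was the most abundant transcript with vehicle and NFKBIA in both rhFGF19 libraries. NFKBIE held 48.3% of the inhibitor FPKM with vehicle, 32.7% with 50 ng/mL and 31.9% with 100 ng/mL, and NFKBIA held 31.9%, 42.2% and 40.8%. The ratio of NFKBIE to NFKBIA accordingly went from 1.51 to 0.774 and 0.783. The share of TNFAIP3 was larger with rhFGF19, at 2.71%, 8.05% and 8.31%, and so was that of NFKBIZ, at 1.98%, 4.74% and 4.81%. The summed FPKM of the 5 subunits was 181, 134 and 135, and that of the 5 inhibitors 142, 135 and 128. The ratio of inhibitor to subunit FPKM was 0.787 with vehicle, 1.01 with 50 ng/mL and 0.944 with 100 ng/mL. These are ratios of transcript levels and say nothing of the amounts of protein. They also depend on the GC trend described further on. With that trend removed from the differences to vehicle, the ratio of NFKBIE to NFKBIA was 1.19 at both doses, beside 1.51 with vehicle. The trend-removed values start from the vehicle FPKM, so any effect of GC content on the vehicle library stays in them. The ratio of NFKB1 to RELA was then 0.0974 and 0.0952, that of RELB to RELA 0.547 and 0.628, and that of the inhibitors to the subunits other than REL 0.794 and 0.747.

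**Figure D2:**
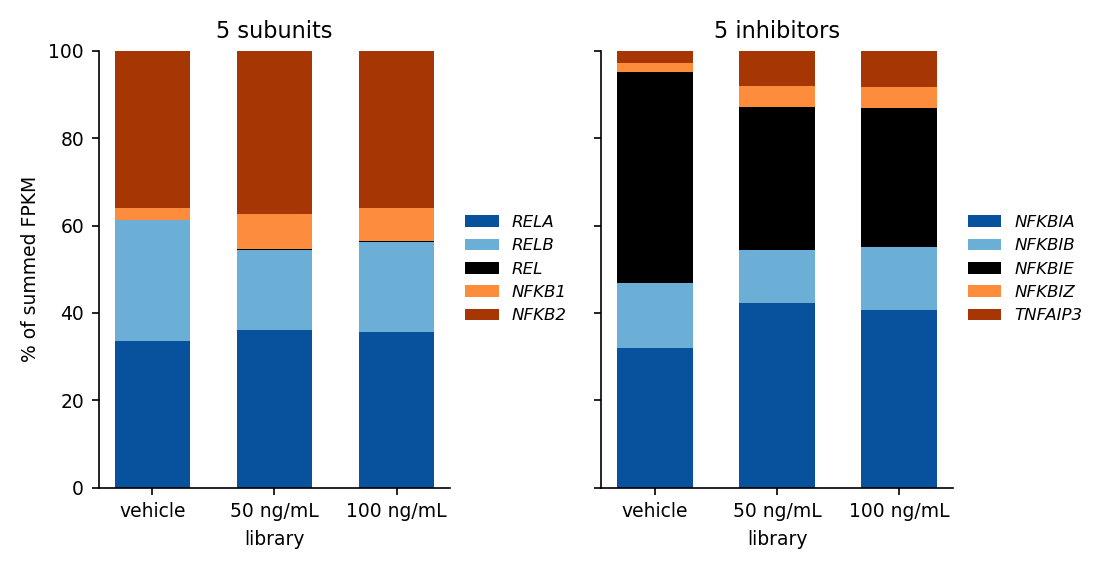
Share of each gene (% of summed FPKM) among the 5 subunits (left) and the 5 inhibitors (right) in the vehicle, 50 ng/mL and 100 ng/mL libraries, 1 bar per library. RELB took 27.5% of the subunit bar with vehicle and 18.4% and 20.7% with rhFGF19, and NFKBIE took 48.3%, 32.7% and 31.9% of the inhibitor bar.

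To read the members against the transcriptome, the same differences were computed for all 12422 gene symbols whose mean reached 0.5 FPKM, on the log2(FPKM + 0.1) scale, which understates changes of low genes. Of the 9 members that passed this filter, 3 (NFKB1, NFKBIZ and TNFAIP3) were more than 2-fold higher than vehicle at 50 ng/mL, where 39.4% of all genes were. The same 3 genes were higher at 100 ng/mL, where 38.5% of all genes were. A count of 3 among 9 was therefore no larger a share than that of the transcriptome. In the other direction, RELB was more than 2-fold lower at 50 ng/mL, against 1.75% of all genes, and no member was at 100 ng/mL, against 1.47%. RELB at the lower dose, with -1.01, and NFKB1 at the higher dose, with 1.01, lay just past the limit.

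The middle of the members lay below that of the transcriptome. The median log2 difference of the 9 members was -0.33 with 50 ng/mL and -0.24 with 100 ng/mL, beside 0.62 at each dose over all genes. A value below vehicle was seen for 5 of the 9 members at each dose, compared with 34.3% of all genes with 50 ng/mL and 34.1% with 100 ng/mL. The 5 were RELA, RELB, NFKB2, NFKBIB and NFKBIE. The comparisons at both doses share the vehicle library, so their likeness is no independent repeat.

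Between the doses, no member differed by more than 2-fold, and 1.63% of all genes did in one direction or the other. Among genes averaging 1 FPKM or more, as all compared members did, 0.343% were more than 2-fold higher and 0.391% lower. With shares this small, finding none among so few members does not set them apart. The differences of 100 from 50 ng/mL ran from -0.13 for NFKBIA to 0.19 for RELB on the log2 scale. For comparison, the differences of all genes between these 2 libraries had an SD of 0.32. The subunits and inhibitors had nearly the same levels in both rhFGF19 libraries. This is the nearest the series holds to a repeat, although dose and library cannot be told apart in it.

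The difference between vehicle and the rhFGF19 libraries followed the GC content of the transcripts throughout the transcriptome, and the members lay along the same slope. Transcript GC content was taken as the median over the transcripts listed for a gene. Which of these were expressed is not known from FPKM per gene, so the median may differ from the GC content of the RNA measured. Over 12397 genes, Spearman's rho between GC content and the log2 difference was -0.77 at each dose, given as a description over genes that share 3 libraries. Over the 9 members it was -0.83 with 50 ng/mL and -0.82 with 100 ng/mL. For the difference of 100 from 50 ng/mL it was 0.068 over all genes and 0.70 over the 9 members, whose differences there were all small.

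The 5 members with values below vehicle had the highest GC contents, from 61.0% for NFKBIE to 65.2% for RELB, above the upper quartile of 58.1% of all genes. NFKBIA, with a small positive difference, had 53.9%. The genes more than 2-fold higher had the lowest, with 50.1% for NFKB1, 50.0% for TNFAIP3 and 44.2% for NFKBIZ. The order of the members by GC content was thus nearly the reverse of their order by log2 difference.

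**Figure D3:**
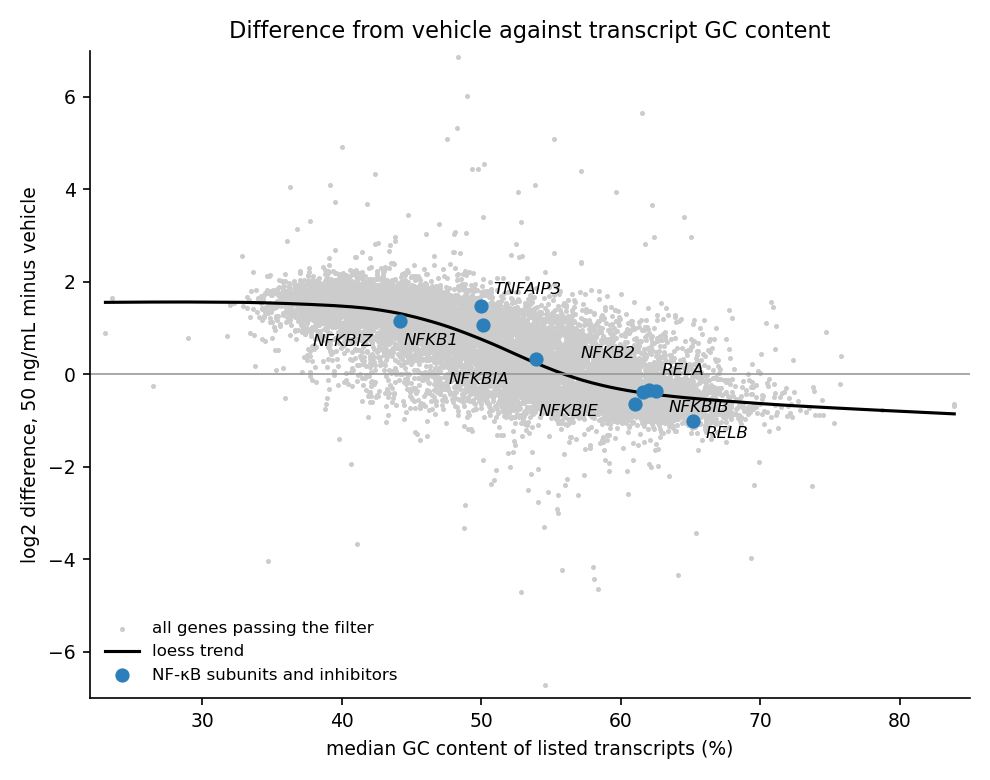
Log2 difference between 50 ng/mL and vehicle against the median GC content (%) of the listed transcripts, for all genes passing the filter (grey points) and for the 9 compared members (blue points), with a loess trend in black. RELB (65.2% GC) and NFKBIZ (44.2% GC) lie at opposite ends of the slope, and TNFAIP3 lies above the trend.

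When the trend over all genes was fitted by loess and subtracted, no member was past 2-fold at either dose. TNFAIP3 kept the highest remaining value, 0.72 with 50 ng/mL and 0.69 with 100 ng/mL on the log2 scale. NFKB1 followed with 0.33 and 0.27. RELB had the lowest, -0.49 and -0.32, before NFKBIE with -0.26 and -0.39. RELA (0.08 and 0.06), NFKB2 (0.03 and -0.03) and NFKBIA (0.08 and -0.04) were left near 0. NFKBIB, lower as deposited, was left above 0, with 0.08 and 0.18, and RELA too turned from below to above 0. NFKBIZ also changed sign, from 1.16 to -0.16 with 50 ng/mL and from 1.10 to -0.19 with 100 ng/mL. Of all genes, 3.72% were then more than 2-fold higher and 5.14% more than 2-fold lower at 50 ng/mL. At 100 ng/mL the shares were 3.33% and 4.58%. Since each condition was 1 library, a change of the cells and a difference between libraries that both follow GC content cannot be told apart.

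**Figure D4:**
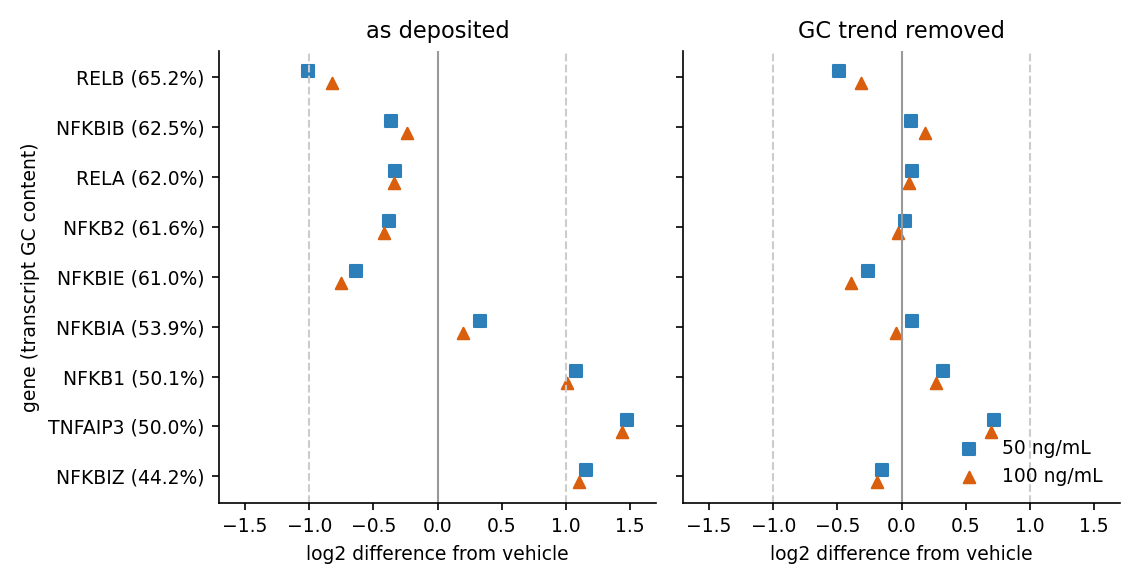
Log2 difference from vehicle of the 9 compared members at 50 ng/mL (squares) and 100 ng/mL (triangles), as deposited (left) and after the GC trend of all genes was subtracted (right), with genes ordered by transcript GC content and dashed lines at a 2-fold difference. NFKB1, NFKBIZ and TNFAIP3 lie beyond the right dashed line on the left panel, and no point lies beyond either line on the right panel.

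Further genes of the pathway were described by lists, ordered from the signal to its readout. The shares of all genes, 39.4% higher and 1.75% lower with the lower dose and 38.5% and 1.47% with the higher dose, are the background to every count. Among the receptor-proximal adaptors and ubiquitin ligases, 16 of 21 genes passed the filter, with 6 more than 2-fold higher and 0 lower at 50 ng/mL, and 5 higher and 1 lower at 100 ng/mL. The higher shares, 37.5% and 31.2%, lay below those of all genes. Their medians were 0.69 and 0.71 on the log2 scale, near the 0.62 of all genes. The highest was UBE2N, the E2 enzyme that builds K63-linked ubiquitin chains, with 2.40 FPKM with vehicle, 9.35 with 50 ng/mL and 9.44 with 100 ng/mL. BIRC2 and BIRC3, which encode the ubiquitin ligases cIAP1 and cIAP2 and of which BIRC3 is also among the highest target genes, had log2 differences of 1.66 and 1.57 with 50 ng/mL and 1.57 and 1.44 with 100 ng/mL. The lowest were IRAK1, a kinase of the interleukin-1 receptor pathway, with 209, 114 and 114 FPKM, and RNF31, the catalytic subunit of the linear ubiquitin ligase. RNF31 had 7.03 FPKM with vehicle, 4.92 with 50 ng/mL and 1.83 with 100 ng/mL. Among the genes of these lists that passed the filter, it was the only one to differ by more than 2-fold between the doses.

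Of the IκB kinases and their activators, 15 of 16 genes passed, with 8 more than 2-fold higher and 0 lower at each dose, a share of 53.3% beside 39.4% and 38.5% of all genes. This list had the highest medians, 1.3 and 1.28, and also the lowest median GC content, 42.1%. TANK, TAB2 and TBK1, an adaptor, a TAK1-binding protein and a non-canonical IκB kinase, led it with log2 differences of 1.76, 1.68 and 1.63 at 50 ng/mL. IKBKG, encoding the regulatory subunit NEMO, was lower, with 17.1, 10.4 and 10.8 FPKM, as was the TBK1 adaptor gene TBKBP1, with 8.26, 5.22 and 4.86 FPKM.

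For the degradation of IκB and the processing of p105 and p100, all 13 genes passed, with 6 higher at 50 ng/mL, 8 higher at 100 ng/mL and 0 lower. The higher shares were 46.2% and 61.5%, beside 39.4% and 38.5% of all genes, with medians of 0.95 and 1.22 beside 0.62 and a median GC content of 45.5%. SKP1 and BTRC, components of the ubiquitin ligase that recognises phosphorylated IκB, had 3.69, 13.6 and 14.0 FPKM and 0.950, 3.48 and 3.14 FPKM. COPS5, of the COP9 signalosome, had log2 differences of 1.71 and 1.81. The lowest were UBE2M, the E2 enzyme for NEDD8, with 113, 66.8 and 72.1 FPKM, and RNF123, encoding a ligase that acts on p105, with 21.6, 14.6 and 13.2 FPKM.

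Among other IκB-type genes and partners of A20, 16 of 18 genes passed, with 8 higher and 0 lower at each dose, a share of 50.0% beside 39.4% and 38.5% of all genes. Their medians of 0.47 and 0.60 nevertheless lay below the 0.62 of all genes. The A20 partners TAX1BP1 and ITCH had log2 differences of 1.65 and 1.56 with 50 ng/mL and 1.86 and 1.71 with 100 ng/mL. Those of TNFAIP3 itself were 1.47 and 1.44. TNIP1 (-0.51 and -0.57), another A20 partner, and TNIP2 (-0.58 and -0.52), of the same list, went the other way. With the GC trend subtracted, TAX1BP1 was left with 0.21 and 0.44, ITCH with 0.18 and 0.35 and TNFAIP3 with 0.72 and 0.69. IKBIP, named for an interaction with IκB kinase, had 1.43, 4.54 and 4.45 FPKM. At the low end stood NFKBIL1, with 26.4, 14.6 and 13.6 FPKM, and ZC3H12A, an RNase that degrades inflammatory mRNAs, with 35.3, 23.3 and 22.1 FPKM. The cofactors and kinases that act on RelA gave 18 passing genes of 20, with 6 higher and 0 lower at each dose, a share of 33.3% beside 39.4% and 38.5% of all genes, and medians of 0.69 and 0.70. SIRT1 and HDAC2, deacetylases, and the kinase gene CSNK2A1 were highest, at 1.51, 1.58 and 1.53 on the log2 scale for 50 ng/mL. RPS6KA4, encoding the kinase MSK2, was lowest, at -0.94.

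The readout of the pathway was described by a list of 49 NF-κB target genes, of which 48 were in the table and 39 passed the filter, members included. Leaving the members out, 32 target genes passed the filter, with 11 more than 2-fold higher and 0 lower at each dose, a share of 34.4% beside 39.4% and 38.5% of all genes. Their medians were 0.71 and 0.73 on the log2 scale, beside 0.62 for all genes, so as a list they were placed near the middle of the transcriptome. IL1A, a cytokine upstream of NF-κB as well as its target, had 0.680 FPKM with vehicle, 2.78 with 50 ng/mL and 2.97 with 100 ng/mL. The neutrophil chemokine gene CXCL8 was the most abundant of the highest targets, with 47.4, 143 and 146 FPKM. BCL2A1, an anti-apoptotic gene, and F3, encoding tissue factor, had log2 differences of 1.62 and 1.55 with 50 ng/mL and 1.37 with 100 ng/mL. The lowest targets were TNIP1, encoding a partner of A20, with 151, 106 and 102 FPKM, CSF2, encoding GM-CSF, with 29.2, 23.3 and 21.9 FPKM, and BCL3, an atypical IκB gene, with 13.8, 10.7 and 11.1 FPKM.

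After the GC trend was subtracted, the list medians lay between -0.09 and 0.08 at both doses. In the degradation and processing list, 0 genes were then more than 2-fold higher and 2 lower at each dose. The 2 were RBX1 (-1.61 and -1.42) and NEDD8 (-1.25 and -1.18). RPS3, of the RelA cofactors, had -1.27 and -1.25. COMMD1 at 50 ng/mL (-1.12) and RNF31 at 100 ng/mL (-1.64) were also lower. The lower genes are named because they passed the limit. Outside the target genes, no gene of the pathway lists was then more than 2-fold higher. Of the target genes outside the members, 1 was then more than 2-fold higher at each dose, CXCL2, with 1.57 and 1.61, and 1 was more than 2-fold lower, CSF2, with -1.04 and -1.12. CXCL2, a neutrophil chemokine gene with 6.51, 14.7 and 15.3 FPKM, was chosen for mention after its values were seen. Like TNFAIP3, it lay above the trend at its GC content.

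**Figure D5:**
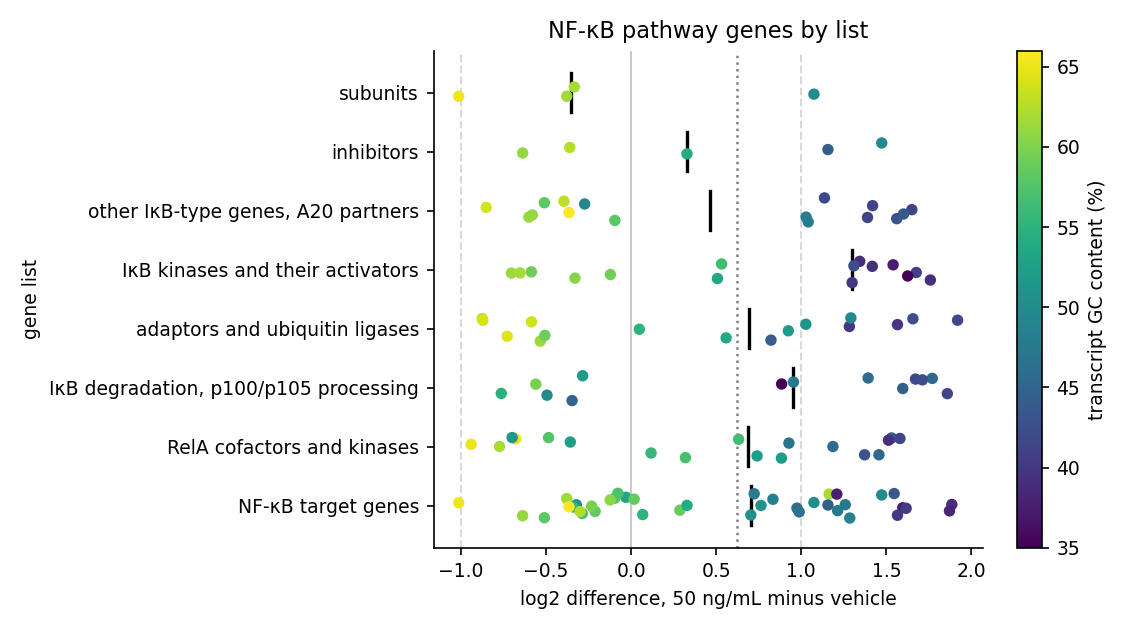
Log2 difference between 50 ng/mL and vehicle for each gene that passed the filter, by list, coloured by transcript GC content (%), with a black bar at the list median, a dotted line at the median of all genes (0.62) and dashed lines at a 2-fold difference; vertical scatter within a list carries no value. Genes of high GC content lie mostly to the left and those of low GC content mostly to the right, with exceptions such as the target gene CXCL2 (61.8% GC, 1.16).

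Genes with nearly the same pair of log2 differences as RELA, NFKB1 or NFKBIA were looked for among 3791 genes with a mean of 10 FPKM or more, by Euclidean distance over the 2 differences from vehicle in the 3 libraries. The nearest to RELA were COQ9 and MOGS, at distances of 0.00185 and 0.00453, and 248 genes lay within 0.1. For NFKB1 they were BRD2 and PARP1, at 0.00602 and 0.0211, with 95 genes within 0.1. For NFKBIA they were PCDHGC3 and KTI12, at 0.0138 and 0.0183, with 71 genes within 0.1. A pattern over 3 libraries was thus common to many genes.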

How the data were processed

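The data were 1 table of 26108 genes with a GEO-deposited value per library for LX-2 cells given vehicle, 50 or 100 ng/mL rhFGF19 (1 library each). The authors deposited FPKM (fragments per kilobase of transcript, scaled for the size of each library), written to 2 decimals. Poly(A) RNA was sequenced as paired ends, and strand assignment is not given in the sources used here. The submitters' processing notes name HISAT2 2.0, StringTie 1.3.0 and Bowtie 0.12.2, with the builds hg19 and mm8 and no roles. The coordinates overlapped GRCh38 for 99.9% of the 25531 rows found in GENCODE v29, all 10 members included. FPKM keep no counts, so depth is unknown and no interval or count test was possible.

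Rows sharing a symbol were summed. Differences of log2(FPKM + 0.1) were taken between single libraries for symbols averaging 0.5 FPKM or more, with a call past 1 in either direction and no test. GC content and length were medians over listed transcripts in GENCODE v29, and trends were removed by loess (span 0.3) over all genes. Promoters came from RefSeq (GRCh38.p14). No genome sequence or protein table was used here. The members and lists were chosen with earlier results of these data known. All members were named, with the 3 highest and 2 lowest genes of each pathway list (5 and 3 for targets) averaging at least 1 FPKM, and the 2 genes nearest in pattern to RELA, NFKB1 and NFKBIA. A result for 1 of these genes is left out. Another 8 settings, of pseudocount, filter, scaling and trend removal, were tried, and 2 more were added after the data were seen. Calculations used Python 3.11.15, NumPy 2.4.6, pandas 2.3.3, SciPy 1.17.1, statsmodels 0.14.6 and matplotlib 3.10.9. The trend removal was also run on simulated data with a straight-line GC trend. The trend fitted to these data was curved, so that run says little about the fit used here.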

Additional observations from a re-analysis of the deposited data

How the results depend on the processing

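The count of 3 members more than 2-fold above vehicle fell to 1 (TNFAIP3) at either dose with a pseudocount of 1 FPKM or when centred on the median ratio to vehicle. It was 0 at either dose after removal of the GC trend, of the length trend, or of the GC and then the length trend, the last an alternative chosen after seeing the data. The count of 1 lower member at 50 ng/mL (RELB) became 0 with a pseudocount of 1 FPKM, when rescaled to TPM and under both GC settings, and 2 with the length trend removed (RELB and NFKBIE). At 100 ng/mL the count of 0 lower members became 1 when centred (RELB) and 2 with the length trend removed. The members' median at 50 ng/mL, -0.33, was -0.0024 without a filter, 0.0759 with the GC trend removed, 0.0767 with GC and length removed and -0.8143 with length removed. At 100 ng/mL, -0.24, it was -0.0206 without a filter, -0.0281 with the GC trend removed, 0.0175 with GC and length removed and -0.7386 with length removed. NFKBIZ turned negative, at -0.1562 and -0.1946 (50 and 100 ng/mL) with the GC trend removed and at -0.0775 and -0.1163 with GC and length removed. The cause of these shifts was not tested. All 27 member differences moved by less than 0.32, the SD between the rhFGF19 libraries, under the other pseudocounts, filters, centring and TPM. Over all genes, 95.8% of the calls at 50 ng/mL were higher as deposited, 82.9% when centred, 42.0% with the GC trend removed and 46.4% with length removed; calls numbered 4898 higher and 217 lower, 2186 and 76 with a pseudocount of 1 FPKM, 461 and 637 with GC removed, 1737 and 2010 with length removed, 3774 and 781 when centred, 5527 and 143 in TPM, and 6669 and 721 without a filter. No paired analysis was possible because each condition had 1 library, and leaving out a library would leave a condition empty.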

Other observations

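The deposited table also carries GO and KEGG annotation, and its NF-κB terms, chosen after the values were seen, put the members among a wider set of pathway genes. In the KEGG NF-kappa B signaling pathway, 63 of 84 listed symbols passed the filter, 6 of them subunits or inhibitors described above, with 27 more than 2-fold higher and 1 lower (RELB) at 50 ng/mL and 26 higher and 0 lower at 100 ng/mL. The higher share, 42.9% and 41.3%, stood beside 39.4% and 38.5% of all genes. Among genes annotated to NIK/NF-kappaB signaling, the non-canonical route in which RELB and NFKB2 act, 24 of 58 were higher at each dose. Their share, 41.4%, was near the 39.4% and 38.5% of all genes. Their medians were 0.37 and 0.42 on the log2 scale, beside 0.62 for all genes, and -0.19 and -0.20 with the GC trend removed. Genes annotated to NF-kappaB binding had the smallest share of higher genes among the 10 terms examined, 8 of 28 or 28.6% at each dose. Genes of positive regulation of I-kappaB kinase/NF-kappaB signaling, the term with the most genes, gave 56 and 55 of 142 higher, or 39.4% and 38.7%. Their median was 0.64 at each dose, beside 0.62 for all genes. With the GC trend removed, the medians of the 10 terms ran from -0.19 to 0.14 at 50 ng/mL and from -0.20 to 0.12 at 100 ng/mL. Terms share genes, and no test was made of them.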
